A study of Mus musculus with 6 samples.

Results

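Metallothioneins are small, cysteine-rich proteins that bind zinc and copper, and together with membrane zinc transporters they set how much free zinc a cell holds. When free zinc rises, it binds the transcription factor Mtf1, which switches on the metallothionein genes Mt1 and Mt2 and the exporter gene Slc30a1. In the central nervous system Mt1 and Mt2 are made mainly by astrocytes and are also induced by glucocorticoids and by cytokines, while Mt3 is the form characteristic of the nervous system. The 7 genes described here were taken by mouse symbol from the 54532 gene identifiers of the files, and each symbol matched 1 identifier. They are the metallothioneins Mt1, Mt2 and Mt3, their metal-sensing regulator Mtf1, the zinc exporters Slc30a1 (ZnT1, of the plasma membrane) and Slc30a3 (ZnT3, which loads zinc into synaptic vesicles), and the importer Slc39a14 (ZIP14, which also carries iron and manganese and is induced in inflammation).

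RNA libraries were made from cervical cords of 6 C57BL/6 mice, 3 in each group and 1 library per mouse. The protocol describes 20 µl of squaric acid dibutylester (SADBE, a contact allergen) at 1% in acetone, placed on shaved abdominal skin daily for 3 days. After 5 days, mice with allergic contact dermatitis (ACD) were challenged with the same dose on the shaved nape on 3 days. Control mice received acetone alone, and the labels do not make clear whether they had been sensitised on the abdomen. Neither ages, sexes nor handling batches were given, so a handling difference between the groups cannot be told apart from ACD. Levels are given as FPKM, a read count divided by exon length and library size, at a depth of 16916600 to 20245576 reads per library. In whole tissue, fewer cells of a type and less RNA per cell cannot be told apart.

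In the ACD cords Mt1 and Mt2 rose, and none of the other 5 genes passed the test. Mt1 was 1.59-fold and Mt2 2.20-fold higher than in controls, whereas Mt3 was 1.28-fold lower without passing. The regulator Mtf1 and the transporters Slc30a1, Slc30a3 and Slc39a14 differed by 1.07- to 1.14-fold. Thus 2 of 7 genes passed an adjusted p of 0.05 in limma, fitted on log2(FPKM + 0.1) over 21369 genes, of which 4.34% passed. Higher calls made up 1.81% and lower calls 2.53% of the genes tested. The groups did not overlap in 3 of the 7 genes, beside 28.6% of all genes tested (ACD above in 13.1%, below in 15.5%). The median log2 fold change of the 7 genes was 0.16, beside -0.01 over all genes tested.

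**Figure D1:**
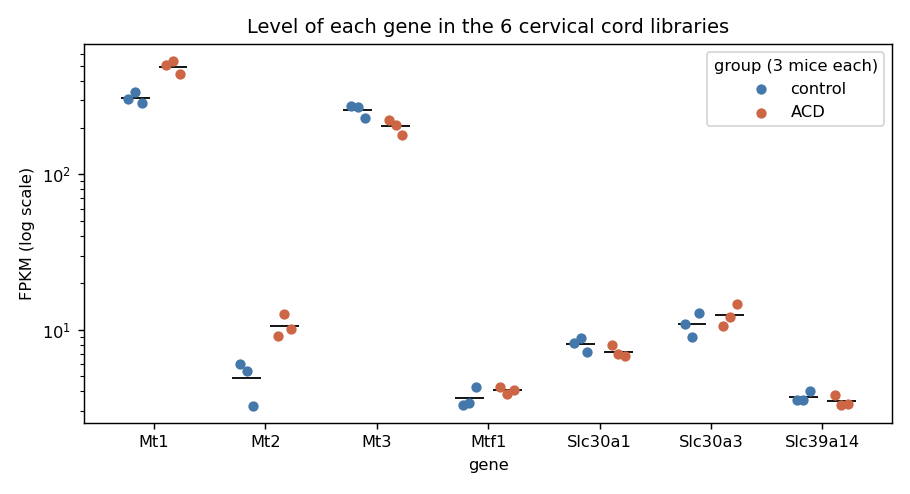
FPKM on a log axis for the 7 genes, with 1 point per library and a bar at each group's mean (3 control and 3 ACD mice). All 3 ACD points lie above all 3 control points for Mt1 and Mt2 and below them for Mt3, and the groups overlap for the other 4 genes.

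Mt1, Mt2 and Mt3 lie side by side on the forward strand of chromosome 8, and the promoters of Mt1 and Mt2, the pair that rose, are shown here because Mtf1 is known to act on both genes through metal response elements. The sequences are RefSeq's (build GRCm38.p6, forward strand), each the 250 bases before the RefSeq start. Capitals mark the core of the metal response element, searched on both strands as TGCACNC and TGCGCNC. The windows are chr8:94178839-94179088 for Mt1 and chr8:94172368-94172617 for Mt2.
Mt1: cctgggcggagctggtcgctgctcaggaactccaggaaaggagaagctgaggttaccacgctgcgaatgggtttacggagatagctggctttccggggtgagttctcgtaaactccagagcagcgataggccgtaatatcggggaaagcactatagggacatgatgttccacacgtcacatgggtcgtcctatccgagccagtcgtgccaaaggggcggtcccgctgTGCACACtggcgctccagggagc
Mt2: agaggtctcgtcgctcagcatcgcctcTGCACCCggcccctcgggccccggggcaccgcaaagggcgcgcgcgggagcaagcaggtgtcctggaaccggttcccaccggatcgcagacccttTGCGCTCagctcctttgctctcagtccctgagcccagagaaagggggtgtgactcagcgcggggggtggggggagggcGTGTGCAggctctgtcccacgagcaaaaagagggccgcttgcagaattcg

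Over the full 300-base windows, which add 50 bases after the start, the core occurred 3 times at Mt1 and 4 times at Mt2. At least 3 occurrences were found in 1.97% of 32851 mouse promoter windows of this length, and at least 1 in 25.7%. The core occurred 2 times in the window of Slc30a1, and 1 time in that of Mt3, where it lay 28 to 34 bases past the start. It occurred 1 time in 1 of the 2 windows of Slc30a3, and no match was found in the other or in that of Mtf1. A STAT site written TTCNNNGAA was found in none of these windows and in 8.30% of all. An antioxidant response element core written TGACNNNGC was found at Mt2 and at Slc30a1, 1 time each, and in 12.4% of all windows. The table of promoters gave no entry for Slc39a14. The window at Mt1 does not reach the starts of 2 further annotated Mt1 transcripts, 122 and 152 bases past the RefSeq start. Those at Mt2 and Mt3 likewise miss further annotated starts, 242 bases past the RefSeq start for Mt2 and 139 bases for Mt3. These matches describe letters and not binding.

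Mt1 (ENSMUSG00000031765, GRCm38 chromosome 8, 94179082 to 94180327) was the most abundant of the 7 genes and ranked 51 among the 21369 genes tested by mean level. Its level was 307, 338 and 287 FPKM in controls 1 to 3 and 507, 537 and 442 FPKM in ACD 1 to 3. The lowest ACD library thus lay above the highest control. The means were 311 ± 26 and 495 ± 48.5 FPKM (SD, n = 3), a log2 fold change of 0.67 (SE 0.10, adjusted p = 0.0203). The rise rested on 6197 to 13534 reads per library, none of its transcript sequence was shared with another gene, and no other gene overlapped its exons. Mt1 remained past the threshold under 11 of 14 alternative settings. It did not pass without control 1 (0.66, adjusted p = 0.0603), without ACD 1 (0.65, adjusted p = 0.0775) or without ACD 2 (0.61, adjusted p = 0.0684).

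Mt2 (ENSMUSG00000031762, chromosome 8, 94172664 to 94173568) was listed far lower than its neighbour. Its level was 6.03, 5.40 and 3.24 FPKM in controls and 9.12, 12.6 and 10.1 FPKM in ACD, with no overlap between the groups. Control 3 held the lowest value and ACD 2 the highest. Means were 4.89 ± 1.47 and 10.6 ± 1.79 FPKM (SD, n = 3), a log2 fold change of 1.14 (SE 0.24, adjusted p = 0.0480), on 33 to 150 reads per library. The 7 genes differed in their spread within groups, and Mt2 varied the most among controls, with an SD of 30.0% of the mean against 8.38% for Mt1. The call is close to the threshold: it held under 4 of 14 alternatives, with adjusted p-values from 0.0103 to 0.138. Of the runs without 1 library it held only without control 3 (0.87, adjusted p = 0.0452) and was lost without control 1, control 2, ACD 1, ACD 2 or ACD 3 (1.01 to 1.31, adjusted p-values of 0.0598 to 0.138).

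The listed level of Mt2 is uncertain. The antisense gene Gm45774 covers 432 of its 588 exon bases on the opposite strand and leaves 156 bases to Mt2 alone, while the FPKM were computed over all 588. Gm45774 itself was listed with 2 to 10 reads per library. The sources used here do not state whether counting used strand or how reads in 2 genes were treated, and the part this overlap plays in the level of Mt2 was not tested. Mt1 and Mt2 differed in listed level by 42.3- to 86.0-fold within a library.

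Mt3 (ENSMUSG00000031760, chromosome 8, 94152607 to 94154146), known as growth inhibitory factor, is expressed in neurons and astrocytes. It was at 278, 271 and 232 FPKM in controls and 225, 208 and 179 FPKM in ACD, so that every ACD value lay below every control value. The means were 261 ± 24.6 and 204 ± 23.3 FPKM (SD, n = 3), a log2 fold change of -0.35 (SE 0.11, adjusted p = 0.120), and the gene did not pass. It passed after scaling to TPM (-0.45, adjusted p = 0.0493) and with voom on recovered reads (-0.34, adjusted p = 0.0464). After TPM scaling the median over all genes was -0.10, from -0.01, so the lower value of Mt3 there includes a shift of all genes. Its 3494 to 5378 reads per library share no sequence with other genes.

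In every ACD library Mt1 and Mt2 lay above all controls and Mt3 lay below them, although Mt3 did not pass. With this pattern in view, ratios of the 3 metallothioneins were taken within each library, where library scaling cancels. The ratios to Mt3 could not overlap between the groups, because the levels of the single genes already lay apart in opposite directions. For these ratios the exact permutation test could only return its smallest value, and no conclusion is drawn from it. The ratios give the size of the difference. The ratio of Mt1 to Mt3 was 1.11, 1.25 and 1.23 in controls and 2.25, 2.58 and 2.47 in ACD. Mt1 thus exceeded Mt3 slightly in control cords and by more than 2 times in ACD cords, with no overlap. The difference was 1.02 on the log2 scale (exact permutation test, two-sided, p = 0.1, adjusted over 3 ratios 0.15), where 0.1 is the smallest p that 3 against 3 libraries allow. For Mt2 to Mt3 the log2 ratio went from -5.75 ± 0.33 in controls to -4.26 ± 0.31 in ACD (SD, n = 3), also without overlap (exact permutation p = 0.1, adjusted 0.15). The log2 ratio of Mt2 to Mt1 was -6.01 ± 0.39 and -5.54 ± 0.21 (SD, n = 3) and the groups overlapped (exact permutation p = 0.2, adjusted 0.2). A larger rise of Mt2 than of Mt1 was therefore not shown.

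**Figure D2:**
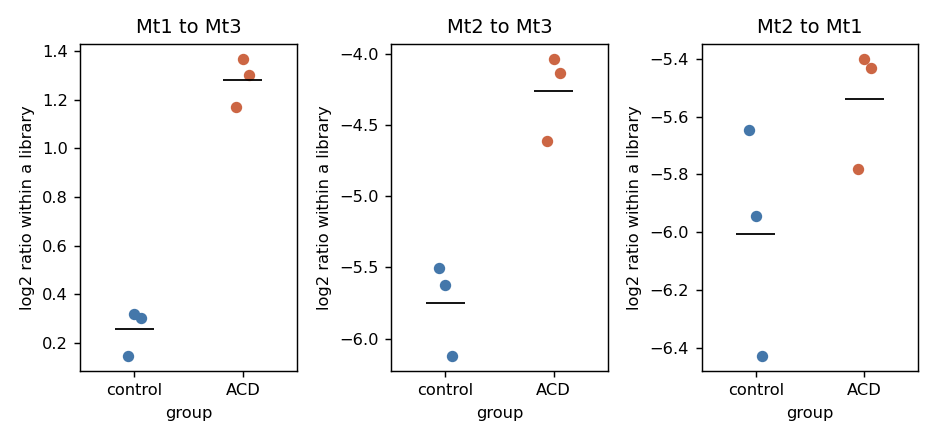
Log2 ratio of 2 metallothionein levels within a library, 1 point per library and a bar at the group mean, for 3 pairs (each panel has its own vertical axis, which does not start at 0). Ratios of Mt1 to Mt3 and of Mt2 to Mt3 separate the 3 ACD from the 3 control libraries, and the ratio of Mt2 to Mt1 does not. The separation in the ratios to Mt3 follows from the levels of the single genes.

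The regulator Mtf1 (ENSMUSG00000028890, chromosome 4, 124802104 to 124849800) was expressed at a low level, and its targets Mt1 and Mt2 rose without a detectable difference in it. It was at 3.27, 3.35 and 4.29 FPKM in controls and 4.24, 3.82 and 4.09 FPKM in ACD. Control 3 exceeded every ACD library, so the groups overlapped. The log2 fold change was 0.16 (SE 0.12, limma 95% interval -0.12 to 0.44, adjusted p = 0.483). Mtf1 is activated by zinc binding and movement to the nucleus, which RNA levels do not measure.

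Slc30a1 (ENSMUSG00000037434, chromosome 1, 191906767 to 191913247), the exporter gene that Mtf1 also controls, was at 8.18, 8.77 and 7.21 FPKM in controls and 7.93, 6.98 and 6.73 FPKM in ACD. The ranges overlapped, and 2 of the 3 ACD values lay below the lowest control. Its log2 fold change of -0.16 had a 95% interval from -0.39 to 0.08 (SE 0.10, adjusted p = 0.408), which leaves out the estimate for Mt1. In 14 of 14 alternatives it was below 0 and did not pass.

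The synaptic vesicle transporter Slc30a3 (ENSMUSG00000029151, chromosome 5, 31086106 to 31108237) came next in level after Mt1 and Mt3. Its values were 10.9, 8.98 and 12.9 FPKM in controls and 10.6, 12.1 and 14.5 FPKM in ACD. Libraries of both groups were interleaved (log2 fold change 0.18, SE 0.16, 95% interval -0.19 to 0.56, adjusted p = 0.541). Slc17a7, the vesicular glutamate transporter of cortical and many primary afferent terminals, was at or below 0.243 FPKM in every library. Cord RNA does not measure terminals whose cell bodies lie outside the cord. Slc17a6, the glutamate transporter of most spinal excitatory neurons, was at 43.4 ± 2.43 and 47.0 ± 3.38 FPKM (SD, n = 3) and did not pass.

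The inflammation-induced importer Slc39a14 (ENSMUSG00000022094, chromosome 14, 70303469 to 70351425) was at 3.52, 3.50 and 4.04 FPKM in controls and 3.77, 3.24 and 3.34 FPKM in ACD. Its groups overlapped and its log2 fold change of -0.09 did not pass (SE 0.10, 95% interval -0.33 to 0.14, adjusted p = 0.623). It rested on 629 to 740 reads per library, and a rise as large as the one estimated for Mt1 lies outside the interval.

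By level per exon length the order in controls was Mt1, Mt3, Slc30a3, Slc30a1, Mt2, Slc39a14 and Mtf1. The ranges of Mt2 and Slc39a14, and of Slc39a14 and Mtf1, overlapped there, and the other neighbours in the order did not. In ACD the order was Mt1, Mt3, Slc30a3, Mt2, Slc30a1, Mtf1 and Slc39a14, and only Slc30a3 and Mt2 overlapped. By listed level Mt2 was thus below every control value of Slc30a1 in control cords and above every ACD value of it in ACD cords. The overlap with Gm45774 makes the level of Mt2 uncertain, and its place in both orders with it.

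**Figure D3:**
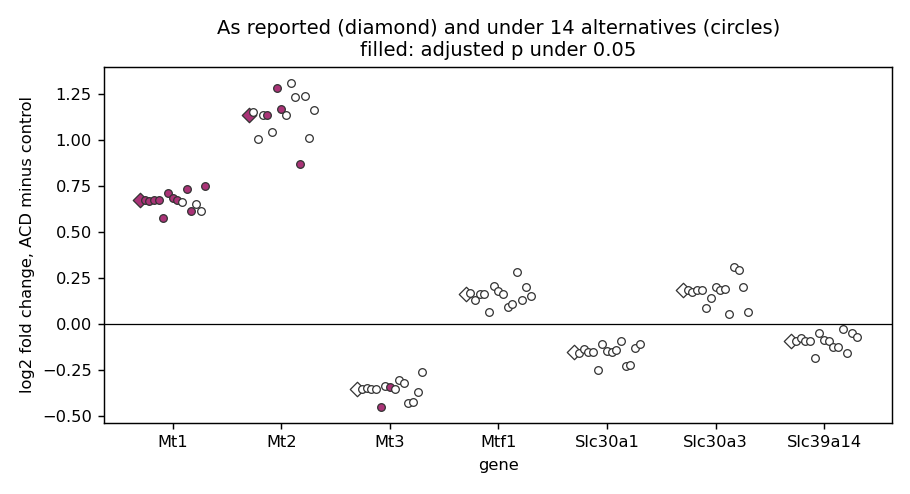
Log2 fold change (ACD minus control) of each gene as reported (diamond) and under 14 other settings (circles), filled where the adjusted p is under 0.05. Each gene keeps its sign under all 14, Mt1 passes under 11 of them, Mt2 under 4 and Mt3 under 2.

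The other zinc genes were taken as whole families: 8 more exporters of the Slc30a (ZnT) family, 13 more importers of the Slc39a (ZIP) family and Mt4, the metallothionein of stratified epithelia. Of these 22 genes 19 were tested, 2 rose, 1 fell and 16 did not pass, with a median log2 fold change of 0.06. Over all genes tested 4.34% were called, 1.81% higher and 2.53% lower. All 3 calls were importers. Mt4 was listed at 0 in 5 libraries and had 1 read in control 2, and 3 reads, the upper 95% limit for a count of 0 (counting error only), correspond to 0.372 to 0.446 FPKM. The exporter Slc30a8 and the importer Slc39a4 were also too low to test.

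None of 7 tested exporters passed in limma, none had an unadjusted p under 0.05 (22.3% of all genes did), and none of 6 passed with voom on recovered reads, where 8.03% of all genes passed. Their median log2 fold change was -0.03. Slc30a10, a manganese exporter, had the smallest p, at 1.96 ± 0.239 and 1.61 ± 0.0842 FPKM (SD, n = 3; log2 fold change -0.27, SE 0.13, adjusted p = 0.273). Among 12 tested importers 2 rose and 1 fell (median 0.09), beside 4.34% of all genes called. Slc39a1 (ZIP1), an importer of the plasma membrane, rose from 13.9, 14.5 and 13.1 FPKM in controls to 18.4, 18.6 and 18.5 FPKM in ACD (0.42, SE 0.06, adjusted p = 0.0207). The related Slc39a3 (ZIP3) rose from 15.4, 15.5 and 15.9 to 19.2, 19.1 and 20.2 FPKM (0.32, SE 0.06, adjusted p = 0.0324). For both genes each ACD library exceeded each control.

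Slc39a7 (ZIP7), which releases zinc from the endoplasmic reticulum, fell from 2.78, 3.57 and 3.20 FPKM in controls to 1.87, 1.81 and 1.77 FPKM in ACD (-0.77, SE 0.12, adjusted p = 0.0207). Its level is uncertain, because the transcript Gm20427 covers 2084 of its 2584 exon bases on the same strand. Gm20427 was listed with 0 to 2 reads per library. Slc39a1 shares 27.7% of its 31-base words with other genes, mostly the pseudogene Slc39a1-ps, which had 0 to 4 reads per library. Calls of Slc39a1, Slc39a3 and Slc39a7 were each lost without ACD 1 (0.42, 0.33 and -0.79), ACD 2 (0.41, 0.33 and -0.77) or ACD 3 (0.42, 0.29 and -0.75). Slc39a1 (0.42) and Slc39a3 (0.31) also lost theirs without control 1, and Slc39a3 without control 2 (0.31), after TPM scaling (0.22, adjusted p = 0.145) and without a filter on low values (adjusted p = 0.0528). Of 14 alternatives Slc39a1 passed under 9 and Slc39a3 under 6, and Slc39a7 passed under 9 of 13. Slc39a12, the importer with the highest level and one enriched in astrocytes, was at 45.6 ± 7.50 and 53.6 ± 2.02 FPKM (SD, n = 3) and did not pass (0.25, adjusted p = 0.282).

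**Figure D4:**
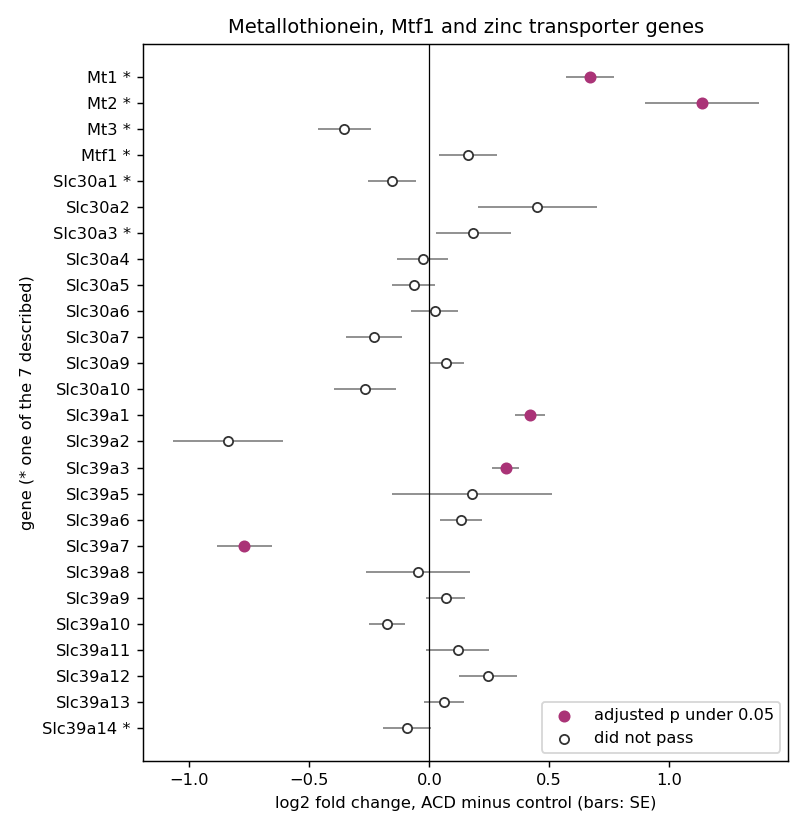
Log2 fold change (ACD minus control, bars 1 SE) of the tested metallothionein, Mtf1, Slc30a and Slc39a genes, with filled points at an adjusted p under 0.05 and an asterisk at each of the 7 genes described. Mt1, Mt2, Slc39a1 and Slc39a3 are filled to the right of 0 and Slc39a7 to the left, and no Slc30a gene is filled.

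Metallothioneins also bind copper, and of 11 tested genes of copper handling 1 rose and none fell, beside 4.34% of all genes called, so that the count lies near the background. An unadjusted p under 0.05 was reached by 6 of the 11, against 22.3% of all genes, and the median log2 fold change was 0.19. Of these 6, Cox17 was lower in ACD (-0.80, adjusted p = 0.0741). With voom on recovered reads 2 genes of the list rose and 1 fell, Cox17 (-0.96, adjusted p = 0.0184). The gene that rose in the main fit was Atox1, the chaperone that hands copper to the exporting ATPases. It was at 68.5, 66.3 and 63.2 FPKM in controls and 88.4, 84.9 and 85.8 FPKM in ACD. The groups did not overlap (0.39, SE 0.06, adjusted p = 0.0224). The call was lost after TPM scaling (0.29, adjusted p = 0.0586) and without control 1 (0.41), ACD 1 (0.37), ACD 2 (0.40) or ACD 3 (0.39). Sod1, the copper and zinc superoxide dismutase, was at 40.2 ± 1.22 and 46.0 ± 0.250 FPKM (SD, n = 3) and did not pass (0.19, adjusted p = 0.103). Sod1, which carries both metals, and Cox17 were picked with their values in view.

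Among 14 glucocorticoid-induced genes other than metallothioneins 1 rose, the cell cycle inhibitor Cdkn1a (1.25, SE 0.12, adjusted p = 0.00713), which p53 also induces, and none fell (median 0.16), again near the 4.34% of all genes. An unadjusted p under 0.05 was reached by 3 of the 14, against 22.3% of all genes. Fkbp5, a co-chaperone and a standard glucocorticoid target, was at 4.67 ± 1.47 and 8.12 ± 1.27 FPKM (SD, n = 3) and did not pass (0.82, SE 0.23, adjusted p = 0.0986). Tsc22d3, another standard target, was at 47.9 ± 0.0463 and 54.3 ± 8.59 FPKM (SD, n = 3; 0.17, adjusted p = 0.441). The other 11 did not pass either and ranged from Sgk1 (-0.40) and Per1 (-0.38) to Dusp1 (0.85, adjusted p = 0.0536) and Zbtb16 (1.22, adjusted p = 0.236). The genes named here besides Cdkn1a were picked with their values in view. Of 12 tested IL-6 and STAT3 targets 2 rose, the receptor chain Il6ra (0.78, adjusted p = 0.0274) and the transcription factor Junb (1.11, adjusted p = 0.0334), and none fell (median 0.39). Over all genes tested 4.34% were called and 22.3% had an unadjusted p under 0.05, which 4 of the 12 reached. The other 10 did not pass and ranged from Bcl3 (-0.40) to Lcn2 (2.25, adjusted p = 0.0655). Among them, Serpina3n was at 0.41 (adjusted p = 0.0536). Bcl3, Lcn2 and Serpina3n were picked with their values in view. Il6ra did not pass without control 1 (0.73), control 2 (0.78), ACD 1 (0.76), ACD 2 (0.79) or ACD 3 (0.79), nor Junb without control 1 (1.13), control 2 (0.97), control 3 (1.22), ACD 2 (1.10) or ACD 3 (0.92). Junb was also lost after TPM scaling (1.01, adjusted p = 0.0544) and without a filter on low values (adjusted p = 0.0535). Cdkn1a passed under all 14 alternatives.

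Profiles like those of 3 of the genes were sought among 12148 other protein-coding genes (mean level 1 FPKM or more). The measure was the root mean square difference of log2 levels over the 6 libraries, each gene centred on its own mean. Closest to Mt1 were C1qc (0.0533), a complement chain made by microglia, Atp5o (0.0540), a subunit of ATP synthase, Phactr3 (0.0624) and H2-Q4 (0.0629), a class I histocompatibility gene. The genes closest to Mt2 were Angpt2 (0.136) and Vwf (0.174), made by endothelium, and the interferon-induced Ifitm3 (0.161) and Isg20 (0.192). Mt1 stood at place 73 from Mt2, and Mt2 at place 5556 from Mt1, by the same difference (0.348). The places differ because more genes lie within that difference of Mt1 than of Mt2. Mtf1, which did not pass, stood nearer to Mt1 (0.330, place 4592) than Mt2 did. Slc39a14 was closest to Ccser2 (0.0206), Tal1 (0.0246), 5031439G07Rik (0.0270) and 2410131K14Rik (0.0282). None of these passed the test, which largely follows from choosing them for a profile like that of Slc39a14.

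Some genes flanking the metallothionein cluster were also examined. Bbs2 (-0.29, adjusted p = 0.0685) and Nup93 (-0.24, adjusted p = 0.382) are protein-coding neighbours within 200 kb, and neither passed. Within the same distance the pseudogene Rpl10-ps5 rose (1.78, adjusted p = 0.0127) and the long non-coding gene C78859 fell (-1.68, adjusted p = 0.00869).

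Summed FPKM of the markers of several cell types was higher in the ACD libraries. The part of these cell types in the rise of Mt1 and Mt2 was not tested. The sums were not scaled to TPM, and that scaling took the median log2 fold change over all genes to -0.10, from -0.01. The neuronal list had a median of 0.14. The 10 astrocyte markers summed to 1307 to 1421 FPKM in controls and 1587 to 1620 in ACD, and 1 of them, the filament gene Gfap, rose (0.48, adjusted p = 0.0332). The other 9 did not pass and went both ways, from the water channel gene Aqp4 (0.31, adjusted p = 0.145, groups apart) and Aldh1l1 (0.26) to the transcription factor gene Sox9 (-0.39), with a list median of 0.11. The 5 erythroid genes summed to 100 to 389 FPKM in controls and 481 to 772 in ACD, and 4 Schwann cell genes to 66.6 to 125 and 196 to 292, although no gene of these lists passed. Among the erythroid genes Hba-a2 went the other way (-0.24). Microglial sums were 63.8 to 86.9 and 99.2 to 108, with 2 of 5 genes higher, beside 4.34% of all genes called. The 2 were Tmem119 (0.53) and C1qa (0.68), which made up most of the sum, at means of 44.5 and 70.7 FPKM. Aif1 (0.37), Cx3cr1 (0.15) and P2ry12 (0.03) did not pass. Sums of 7 neuronal genes were 684 to 787 and 798 to 832, and of 5 oligodendrocyte genes 3913 to 6045 and 6092 to 7226, with no gene past the test. Endothelial, ependymal and meningeal sums overlapped between the groups. The cervical Hox genes were present in all libraries, at summed levels of 45.0 to 64.5 and 50.2 to 69.3 FPKM.

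**Figure D5:**
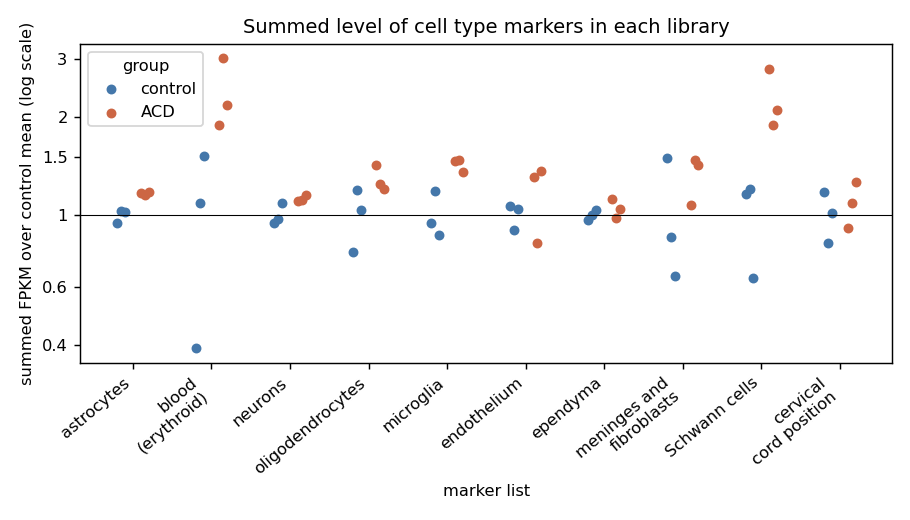
Summed FPKM of each marker list divided by the control mean, on a log axis, with 1 point per library. Values were not scaled to TPM. Astrocyte, erythroid, neuronal, oligodendrocyte, microglial and Schwann cell sums are higher in all 3 ACD libraries than in all 3 controls, and the other 4 lists overlap.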

How the data were processed

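The members and gene lists were chosen with earlier results of these data known. The deposited values are FPKM, 1 file per library, made by the authors. Their tools, listed without roles in the submitters' processing notes, include DESeq2 1.16.1, featureCounts 1.5.0-p3 and HISAT2 2.0.5, with the build mm10. Neither strand use nor the annotation release is given in the sources used here. Symbols were found for 54409 of 54532 identifiers, and 54495 were in GENCODE M21 (GRCm38), which gave coordinates and exon lengths.

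With 1 denominator for each library, FPKM multiplied by exon length came within 0.05 of whole reads for 96.7% to 97.0% of values above 0. These denominators were taken as the depth.

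Genes averaging 0.1 FPKM or more were fitted with limma 3.58.1 in R 4.3.3 (trend and robust) on log2(FPKM + 0.1), which understates changes of low genes, with Benjamini-Hochberg adjustment over 21369 genes and a threshold of 0.05. The fit was also run on simulated data with the same dispersion for every gene, which does not cover genes that vary as much as Mt2. P-values measure the spread between 3 mice per group. Alternatives were 2 pseudocounts, 2 filters, TPM scaling, removal of a length and GC trend, voom with TMM factors on recovered reads, the replicate block and leaving out each library. Named genes were the 7 members, up to 4 passing genes of each list or that with the smallest p, and the 4 nearest profiles of Mt1, Mt2 and Slc39a14. Flanking and marker genes and those said to be chosen afterwards fall outside this rule, as does Slc39a12.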

Additional observations from a re-analysis of the deposited data

How the results depend on the processing

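All 7 genes kept their direction under each of the 14 alternatives, as did the 3 ratios under each of theirs. The number of all genes past the threshold was 927, and it was 556 without a filter, 1397 with the length and GC trend taken out, 1650 with voom, 181 with the replicate block and 192 to 736 with 1 library left out. Of all calls 41.6% were higher as deposited, 22.8% after TPM scaling and 65.0% after removal of the trend. Of the 7 genes 1 passed in place of 2 with a pseudocount of 0.01 or 1, without a filter and with the replicate block, and 0 to 2 passed with 1 library left out. Of the other zinc genes 0 passed in place of 3 with the replicate block and 0 to 3 with 1 library left out. Mt1 ranged from 0.61 to 0.75 and Mt2 from 0.87 to 1.31 with 1 library left out. Mt2 did not pass with a pseudocount of 0.01 (1.15) or 1 (1.00), without a filter (1.14), after TPM scaling (1.04) or with the replicate block (1.14, adjusted p = 0.0774). The block also ended the calls of Atox1 (adjusted p = 0.0686), Il6ra (0.0930) and Junb (0.0560). Mt3 passed after TPM scaling (-0.45) and with voom (-0.34). The cause of these changes was not tested. Deviations of same-numbered libraries from their group means had correlations of -0.028, 0.015 and 0.003. A correlation over many genes cannot show whether the replicate numbers mark shared handling that affects some of them. The block cost residual degrees of freedom. With it the SE was lower for Mt1, Mt2, Mt3, Mtf1, Slc30a1 and Slc30a3 and higher for Slc39a14. Whether these genes share a replicate effect was not tested. Slc39a7 could not be fitted with voom, since its values were not all whole reads. Of the 7 genes Mt2 had the fewest reads, 33 to 150 per library, and Mt4 was not detectable in 5 libraries.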
